A study of Mus musculus with 15 samples.

Results

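Transcripts of peroxiredoxins, glutathione peroxidases and the copper-zinc superoxide dismutase were examined in mouse kidney on 15 Affymetrix arrays, over the 4 sample groups and in each single cell. The genes were Prdx1 to Prdx6, Gpx1, Gpx3, Gpx4 and Sod1, and a probe set was taken where one of them was its only gene symbol in the platform annotation. This gave 11 probe sets for 8 of the 10 genes, out of 35557 probe sets in all, with a pair each for Prdx1, Prdx2 and Gpx4. Prdx5 and Prdx6 were not analysed here. The metanephric mesenchyme (MM) cells, from the embryonic tissue that forms nephrons and stroma, were 4 single cells (14, 15, 16 and 19) of embryonic day 11.5, Theiler stage 19, carrying Tg(Crym-EGFP)GF82Gsat, in which Crym sequence drives the reporter. Juxtaglomerular (JG) cells, the renin-secreting cells beside the glomerulus, were 5 single YFP-positive cells (4 to 8) of adult male Ren1c-YFP mice, whose dissection note names a Ren1d GFP line instead. Renal cortex of adult male Ren1c-YFP mice, a mixture of cell types, gave 3 libraries (A, B and C) that were diluted and amplified like the cells with 32 recorded rounds, and 3 libraries labelled with the NuGEN Pico kit with 1 recorded round. Strain is unspecified in all groups, no sample is recorded as pooled, and no label names an animal for any cell or library. The enzymes were selected on earlier results of these arrays, in which the signal of Prdx2 in MM against JG cells and of Gpx3 in JG cell 5 stood out, so those values are given as descriptions.

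Peroxiredoxins and glutathione peroxidases reduce hydrogen peroxide and lipid peroxides, and superoxide dismutases supply part of the hydrogen peroxide by converting superoxide. Typical peroxiredoxins are recharged by thioredoxin and the glutathione peroxidases by glutathione. Prdx1 and Prdx2 encode cytosolic, Prdx3 a mitochondrial and Prdx4 an endoplasmic reticulum peroxiredoxin. Gpx1 encodes the common cytosolic glutathione peroxidase, Gpx4 the enzyme that reduces lipid peroxides in membranes and restrains ferroptosis, and Gpx3 the secreted plasma enzyme, for which the proximal tubule is a known source. Gpx1, Gpx3 and Gpx4 are selenoproteins. Several genes of the system are known targets of the transcription factor NRF2, encoded by Nfe2l2, which binds antioxidant response elements.

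The promoters of Prdx1, Prdx2 and Sod1 are shown for the patterns of these genes over the cells. Prdx1 probe set 10436048 and Prdx2 probe set 10356999 gave opposite patterns over the JG cells, while Sod1 was bright in every cell. The second probe sets did not bear this out in every cell. Prdx1 probe set 10507328 was dim in JG cell 5 too, and Prdx2 probe set 10573483 was dim in JG cell 6 too. The sequences are the 250 bases before the RefSeq start site (GRCm38.p6), 5′ to 3′ on the strand of the gene. Prdx1 lies at chr4:116685349-116685598 on the + strand, Prdx2 at chr8:84969372-84969621 on the + strand and Sod1 at chr16:90220512-90220761 on the + strand. Capitals mark matches on either strand to the core antioxidant response element TGACNNNGC, the GC box GGGCGG, the CCAAT box CCAAT and the TATA box TATAAA.
Prdx1: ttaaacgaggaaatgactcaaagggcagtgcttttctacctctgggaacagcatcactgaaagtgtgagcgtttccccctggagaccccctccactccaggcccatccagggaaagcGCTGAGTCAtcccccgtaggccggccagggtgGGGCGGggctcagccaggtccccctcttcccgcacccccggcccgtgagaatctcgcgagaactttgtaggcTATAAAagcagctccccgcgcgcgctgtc
Prdx2: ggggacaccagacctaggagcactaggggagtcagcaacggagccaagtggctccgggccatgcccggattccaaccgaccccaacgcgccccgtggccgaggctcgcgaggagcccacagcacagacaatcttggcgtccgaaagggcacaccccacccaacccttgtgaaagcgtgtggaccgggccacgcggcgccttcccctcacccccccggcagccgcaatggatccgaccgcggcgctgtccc
Sod1: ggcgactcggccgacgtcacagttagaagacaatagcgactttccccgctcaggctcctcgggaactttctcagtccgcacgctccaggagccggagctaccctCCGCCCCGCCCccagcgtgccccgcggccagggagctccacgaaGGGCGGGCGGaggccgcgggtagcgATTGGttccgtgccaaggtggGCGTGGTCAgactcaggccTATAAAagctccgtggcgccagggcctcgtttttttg
The response element core was matched once in Prdx1 and once in Sod1, and not in Prdx2. Promoters were found for 9 of the 10 genes, 12 in all, and the core occurred in no other of them. It occurred in 10.2% of all 32851 promoters of this length, the GC box in 32.7%, the CCAAT box in 33.8% and the TATA box in 12.4%. Sod1 held 4 GC box matches in overlapping pairs, Prdx4 held 3, and Prdx2 none of the 4 motifs. A match describes letters in this window only.

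A probe set was called above background where it exceeded the 99th percentile of 1205 olfactory and vomeronasal receptor probe sets on the same array, since the values come with no detection call. This level lay between 7.13 and 7.56 (log2 signal) on the MM arrays, between 7.55 and 7.93 on the JG arrays and between 6.18 and 6.52 on the cortex arrays. Of all named probe sets, 11.6% to 21.8% were above it in MM cells, with the lowest share in cell 16, and 7.15% to 14.6% in JG cells, with the lowest shares in cells 5 (7.15%) and 4 (9.41%), against 44.3% to 50% in cortex. The JG markers Mgp and Crip1 were above background in all 5 JG cells and Rgs5 in 3, while Ren1 itself was not analysed here. The nephron progenitor gene Six2 was above background in MM cells 14 and 16 and the stroma gene Foxd1 in MM cells 14 and 19, and neither in a JG cell. The whole lists did not part the groups: of 8 cap mesenchyme markers an MM cell had 1 to 4 above background and a JG cell 0 to 4 (Cited1 in 4 of the 5), and of 5 stroma markers 2 or 3 in MM cells and 2 in every JG cell (Col1a1 and Col3a1). All 10 proximal tubule markers were above background in each cortex library, and 0 of 5 macrophage markers in any cell. Of 6 endothelium markers, Emcn was above background in MM cell 14 (11.77) and Cldn5 in JG cell 5 (10.77), and none in the other cells. The JG marker Crip1 was also above background in MM cell 15 (7.93).

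Some of the antioxidant enzymes were above background in every single cell, and the set of genes above background varied between cells. MM cells 14 and 19 shared one set, and JG cells 4 and 8 another. All 11 probe sets were above background on all 6 cortex arrays. In MM cells 37 of 44 values were above background (84.1%, against 17.8% over all named probe sets), and in JG cells 31 of 55 (56.4%, against 10.6%). These counts include the Prdx2 values and the Gpx3 value of JG cell 5, which were known when the enzymes were selected. They are descriptions of the chosen list. Without the cells of lowest share (MM cell 16, JG cells 4 and 5), an alternative chosen after seeing the data, the values were 90.9% and 57.6%. Gpx4, Gpx1 and Sod1 were above background in all 9 cells, Prdx1 in 8 by one or both of its probe sets and Prdx2 in 5, whereas Gpx3 was in 4, Prdx4 in 3 and Prdx3 in 2. MM cells 14, 15 and 19 each had 7 of the 8 genes above background and MM cell 16 had 5. JG cells had 4 or 5.

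**Figure D1:**
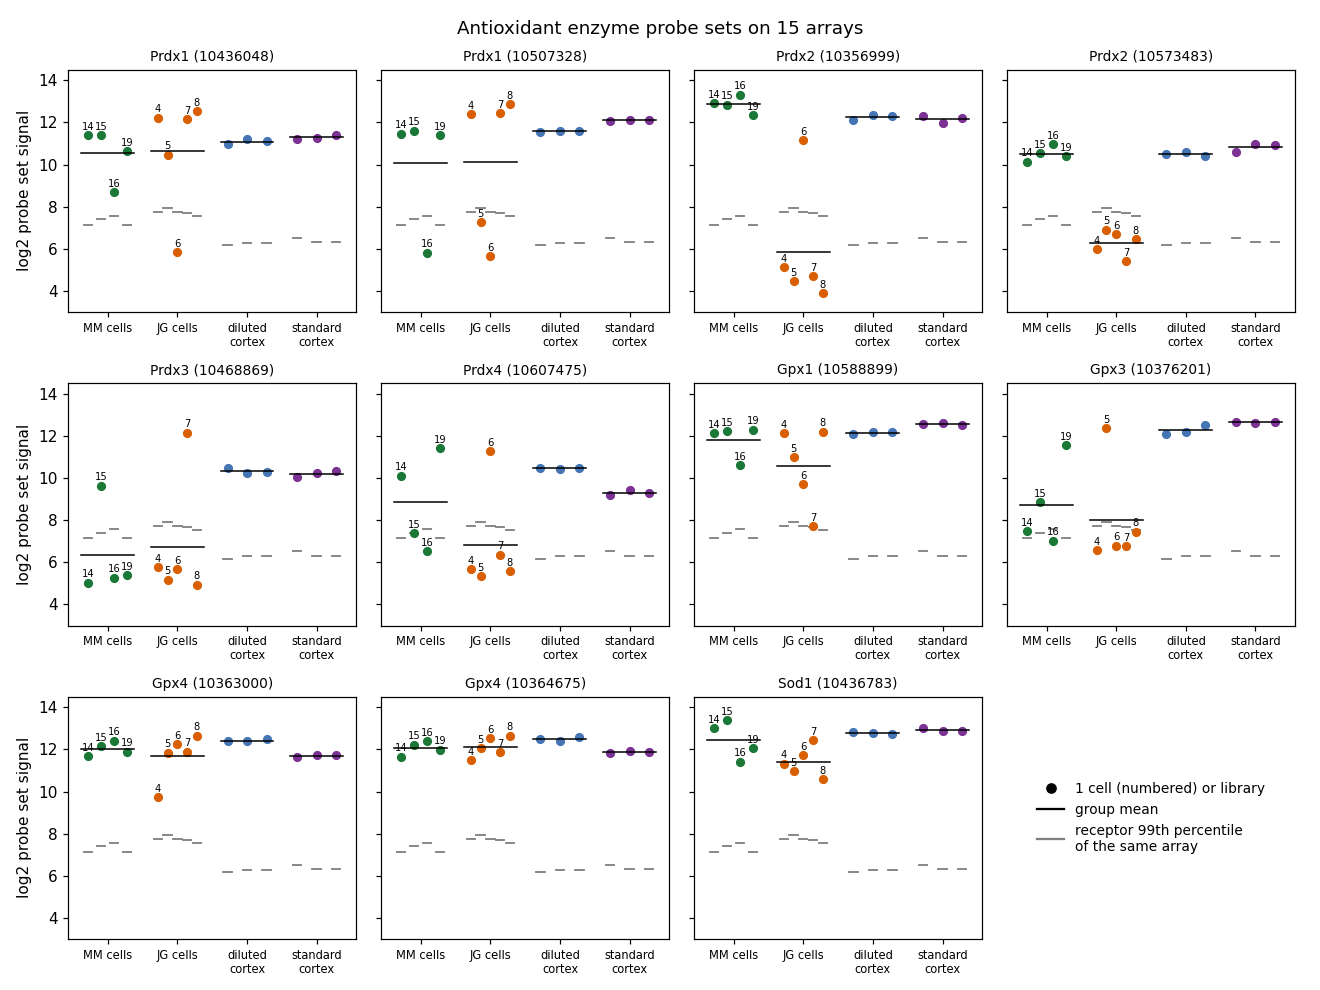
Log2 probe set signal (y axis) of the 11 antioxidant enzyme probe sets in the 4 sample groups (x axis). Each point is 1 cell, with its number, or 1 cortex library, black lines are group means and short grey lines give the receptor 99th percentile of the same array. Prdx2 probe set 10573483 separates the 4 MM cells (10.14 to 10.98) from the 5 JG cells (5.41 to 6.90), and Prdx3, Prdx4 and Gpx3 join bright and dim cells within a group.

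Prdx2, whose product is a peroxide-reducing enzyme also abundant in red cells, was bright in every MM cell and dim in most JG cells. Probe set 10356999 measured 12.91, 12.84, 13.32 and 12.36 in MM cells 14, 15, 16 and 19 and 5.13, 4.47, 11.17, 4.70 and 3.89 in JG cells 4 to 8 (log2 signal). Only JG cell 6 was above background, and the groups did not overlap. Diluted cortex held 12.11, 12.35 and 12.31 and standard-labelled cortex 12.33, 11.95 and 12.22. The MM mean of 12.86 ± 0.39 (SD over 4 cells) was 6.99 higher than the JG mean of 5.87 ± 2.99 (SD over 5 cells), and 8.31 higher without JG cell 6. The second Prdx2 probe set, 10573483, measured 10.14, 10.54, 10.98 and 10.40 in MM cells and 5.99, 6.90, 6.68, 5.41 and 6.46 in JG cells. Every JG cell lay below background on it, JG cell 6 included, so the probe sets disagree for that cell. Set against the background level of the JG arrays, its signal was at least 6.89-fold higher in MM cells and at least 6.78-fold higher in diluted cortex. The RefSeq table also lists Prdx2 pseudogenes, and signal from such near-identical copies could not be told apart. Whether the probe sets of Prdx1 also read such copies was not tested. Of 4 measured erythroid genes, each MM cell had 1 above background, at 7.15 to 7.67, and JG cells had 0 or 1, at up to 8.91. The part of red cell RNA in the Prdx2 values was not tested.

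Prdx1, the most widely expressed cytosolic peroxiredoxin, differed between cells of the same group more than between groups. Probe set 10436048 measured 11.38, 11.39, 8.68 and 10.65 in MM cells 14, 15, 16 and 19 and 12.22, 10.47, 5.85, 12.14 and 12.53 in JG cells 4 to 8. Probe set 10507328 measured 11.46, 11.61, 5.82 and 11.40 in MM cells and 12.40, 7.27, 5.66, 12.45 and 12.87 in JG cells. Both placed JG cells 4, 7 and 8 above all MM cells and both cortex preparations (10.97 to 11.38 on the first and 11.56 to 12.12 on the second), and both placed JG cell 6 below background. They parted in MM cell 16 and JG cell 5, which were above background on the first probe set only. The group means on the first were 10.52 ± 1.28 in MM (SD over 4 cells) and 10.64 ± 2.80 in JG (SD over 5 cells), a difference of -0.12 that became 0.49 without MM cell 16 and -1.32 without JG cell 6. JG cell 6, dim for Prdx1, was the JG cell that was bright for Prdx2 probe set 10356999.

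Prdx3 and Prdx4, the organelle peroxiredoxins, were bright in single cells and at background in the others. Prdx3 measured 5.03, 9.64, 5.28 and 5.38 in MM cells 14, 15, 16 and 19 and 5.78, 5.18, 5.67, 12.15 and 4.94 in JG cells 4 to 8, whereas the 6 cortex libraries lay between 10.06 and 10.49. MM cell 15 and JG cell 7 were thus the only cells of their groups with Prdx3 above background. The means of 6.33 ± 2.21 and 6.75 ± 3.04 (SD over 4 and 5 cells) describe no cell. Whether the cells below background lacked the transcript was not tested. Prdx4, which acts where secreted proteins fold, measured 10.11, 7.38, 6.53 and 11.43 in MM cells and 5.68, 5.34, 11.26, 6.36 and 5.57 in JG cells. It was above background in MM cells 14 and 19 and in JG cell 6. In cortex it was steady at 10.44 to 10.48 (diluted) and 9.19 to 9.43 (standard-labelled).

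Gpx4 was bright in every cell and even over cells on one of its probe sets. Probe set 10364675 measured 11.65, 12.23, 12.39 and 11.99 in MM cells and 11.48, 12.06, 12.53, 11.88 and 12.65 in JG cells, with an SD of 0.32 over the 4 MM and 0.48 over the 5 JG cells. Probe set 10363000 measured 11.66, 12.14, 12.42 and 11.90 in MM cells and 9.72, 11.85, 12.25, 11.89 and 12.66 in JG cells, where cell 4 stood apart. The groups overlapped on both, and the MM minus JG difference was -0.06 on the first, with either sign when single cells were left out (-0.22 to 0.084), and 0.36 on the second. Gpx1 measured 12.14, 12.22, 10.60 and 12.29 in MM cells and 12.12, 10.99, 9.72, 7.70 and 12.21 in JG cells. JG cells 4, 5 and 8 lay within the range of the MM cells, and JG cell 7 lay only 0.0058 above its background level. The Gpx1 mean was 1.26 higher in MM (11.81 ± 0.81, SD over 4 cells) than in JG cells (10.55 ± 1.88, SD over 5 cells), and the groups overlapped.

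Gpx3, which encodes the plasma glutathione peroxidase, was bright in both cortex preparations and in 1 cell of each cell group. It measured 7.48, 8.87, 7.03 and 11.57 in MM cells 14, 15, 16 and 19 and 6.57, 12.37, 6.79, 6.76 and 7.46 in JG cells 4 to 8. Diluted cortex held 12.07, 12.19 and 12.53 and standard-labelled cortex 12.67, 12.63 and 12.67. JG cell 5 reached the diluted cortex level and MM cell 19 came within 1 log2 unit of it, while the other JG cells lay below background. JG cell 5 also had 2 of 10 proximal tubule markers above background, Miox (12.63) and Slc22a6 (8.74). Its other 8 markers, Slc34a1, Lrp2 and Slc27a2 among them, were at 5.60 to 6.87, below its background level. MM cell 19 had 0 of the 10 above background, its brightest at 7.06, and MM cell 15 also had 0. MM cell 14, with Gpx3 at 7.48, had 1 marker above background, Slc5a2 (7.60), against its background level of 7.15. JG cell 8, with Gpx3 below background, also had 2 markers above it, Slc34a1 (7.56) and Slc5a2 (7.71), against its background level of 7.55. The part of tubule RNA in the Gpx3 value of JG cell 5 was not tested.

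Sod1, the cytosolic superoxide dismutase, was above background by at least 3.02 log2 units in every cell. It measured 13.01, 13.37, 11.42 and 12.07 in MM cells and 11.33, 10.96, 11.74, 12.43 and 10.58 in JG cells. Every JG cell lay below the diluted cortex libraries (12.74 to 12.83), whereas MM cells 14 and 15 lay above them. The mean was 1.06 higher in MM (12.47 ± 0.89, SD over 4 cells) than in JG cells (11.41 ± 0.72, SD over 5 cells), with overlap between the groups.

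**Figure D2:**
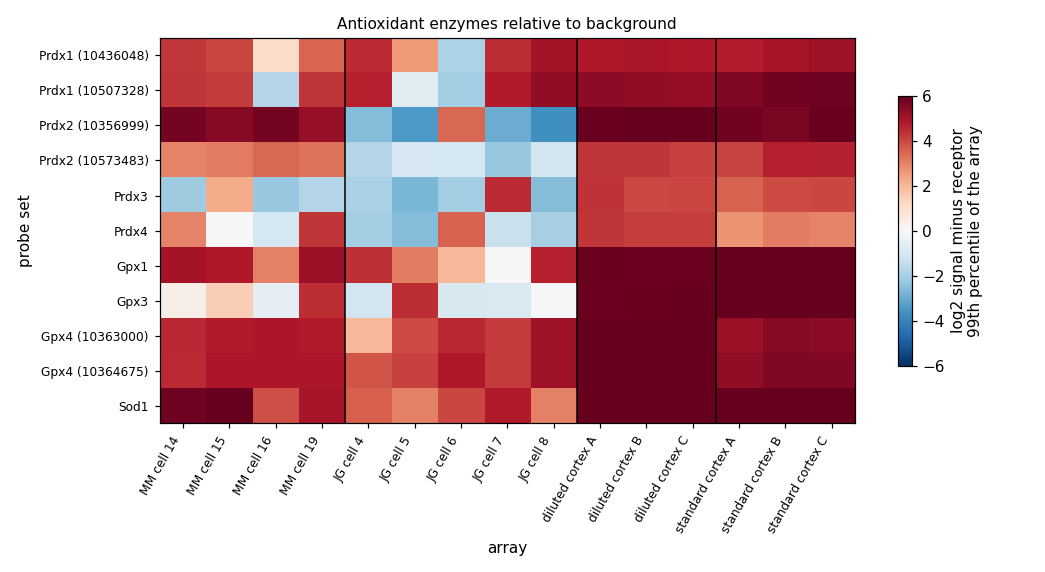
Log2 signal minus the receptor 99th percentile of the same array (colour) for the 11 antioxidant enzyme probe sets (rows) on 15 arrays (columns), with vertical lines between the 4 groups. Gpx1, Gpx4 and Sod1 are above 0 in all 9 cells, and Prdx2, Prdx3, Prdx4 and Gpx3 are above 0 in some cells and below 0 in others.

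Diluted cortex went through the protocol of the cells, so each cell group was set against it as well as against the other cell group. No test was made here, since no label ties cells to animals and each group of cells counts as 1 sample, and these genes were listed with the differences known. A difference of at least 1 log2 unit between group means is the size counted. In MM against JG cells, 5 of 11 probe sets were higher by that size (both of Prdx2, Prdx4, Gpx1 and Sod1) and 0 lower. Among all 21500 probe sets whose mean in the higher group reached the overall median signal (6.08), 15% were higher and 2.99% lower. By the brightest probe set of each gene the median difference over the 8 genes was 0.90, ranging from 0.54 without MM cell 19 to 1.36 without MM cell 16. The median over the 21500 probe sets was -0.20. The groups did not overlap for Prdx2 alone (2 probe sets, MM higher), where 1.96% of all probe sets had every MM cell above every JG cell and 7.51% the reverse.

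Against diluted cortex, 8 of 11 probe sets were at least 1 log2 unit lower in JG cells and 0 higher, where 33.8% of 22824 probe sets were lower and 35.6% higher. The exceptions were both Gpx4 probe sets (-0.74 and -0.37) and Prdx1 probe set 10436048 (-0.45). The largest differences were -6.39 for Prdx2 probe set 10356999, -4.28 for Gpx3, -4.21 for Prdx2 probe set 10573483, -3.62 for Prdx4 and -3.60 for Prdx3. Prdx2 probe set 10573483 lay below background in all 5 JG cells and the others in 4 of 5, so these differences are set largely against background signal. Every JG cell lay below every diluted library for both Prdx2 probe sets and Sod1 (32.7% of all probe sets), and for none did every JG cell lie above (43.1%). The median over the 8 genes was -2.61, and -3.66 with each array centred on its receptors, which themselves were 1.02 higher in JG cells. So centred, 11 of 11 probe sets were at least 1 log2 unit lower, where 47.5% of all were lower and 3.33% higher. The median over all 22824 probe sets was 0.25.

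The MM cells were then set against diluted cortex. Of 11 probe sets 4 were at least 1 log2 unit lower (Prdx1 probe set 10507328, Prdx3, Prdx4 and Gpx3) and 0 higher, where 30.1% of 21276 probe sets were lower and 23.7% higher. Prdx3 differed by -4.02 and Gpx3 by -3.53, with every MM cell below every library, as also for Gpx4 probe set 10364675 at -0.43 (27.4% of all probe sets). Prdx2 probe set 10356999 was 0.60 higher in MM cells, with every cell above every library (39.4% of all probe sets), and the receptors were 0.81 higher. With each array centred on its receptors, 9 of 11 probe sets were at least 1 log2 unit lower in MM cells and 0 higher, where 44.2% of all probe sets were lower and 2.69% higher, and that Prdx2 difference was -0.24. The median over the 8 genes was -0.50, against 0.15 over all 21276 probe sets. Both cell groups were set against the same 3 diluted libraries.

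The cortex preparations were compared to see how these genes read after dilution and amplification. In such bulk samples, fewer cells of a type and less RNA per cell cannot be told apart. By limma with Benjamini-Hochberg adjustment over 17954 probe sets, 3 of 11 probe sets were higher in diluted cortex and 4 lower, where 40.7% of all probe sets were higher and 37.2% lower, or 77.9% in either direction. Prdx4 rose most, from 9.30 ± 0.12 to 10.46 ± 0.02 (SD, n = 3 each), a log2 fold change of 1.16 ± 0.09 (SE) with adjusted p = 8.1e-06 in limma. Gpx4 rose by 0.71 ± 0.08 on probe set 10363000 (limma adjusted p = 9.4e-05) and by 0.63 ± 0.09 on 10364675 (limma adjusted p = 0.00027). The diluted and standard-labelled libraries did not overlap on any of these 3 probe sets.

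The 4 probe sets lower in diluted cortex changed less. Prdx1 probe set 10507328 fell by 0.52 on the log2 scale (SE 0.08, limma adjusted p = 0.00036), and Gpx1 fell by 0.41 (SE 0.08, limma adjusted p = 0.002). Gpx3 fell by 0.39 (SE 0.13, limma adjusted p = 0.021) and Prdx2 probe set 10573483 fell by 0.34 (SE 0.12, limma adjusted p = 0.036). The Gpx3 call was lost without diluted library A or B or without standard-labelled library A or C, with limma adjusted p of 0.052 to 0.063 (0.0036 to 0.87 over its 11 alternatives), and also with all 15 arrays in the fit (0.87). The Prdx2 call was lost without diluted library A or C or standard-labelled library B or C, with limma adjusted p of 0.075 to 0.12 (0.0022 to 0.48 over its 11 alternatives), and also without the filter (0.058), with arrays centred on receptors (0.052) and with all 15 arrays in the fit (0.48). Without diluted library A, or without standard-labelled library C, 2 probe sets instead of 4 stayed past the threshold, Prdx1 probe set 10507328 and Gpx1.

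The other 4 probe sets did not pass the test. Their 95% intervals for the log2 fold change were -0.19 to 0.38 for Prdx2 probe set 10356999, -0.42 to 0.03 for Prdx1 probe set 10436048, -0.33 to 0.06 for Sod1 and -0.11 to 0.39 for Prdx3. The probe sets of Prdx1 and of Prdx2 thus differed in their calls. Nothing says that the libraries come from separate animals, so these p-values measure the spread between libraries, which may be technical. With all 15 arrays in the fit, so that the spread of the single cells is shared, 0 of 11 probe sets passed in limma (lowest adjusted p = 0.092, and 1 at an unadjusted p under 0.05).

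**Figure D3:**
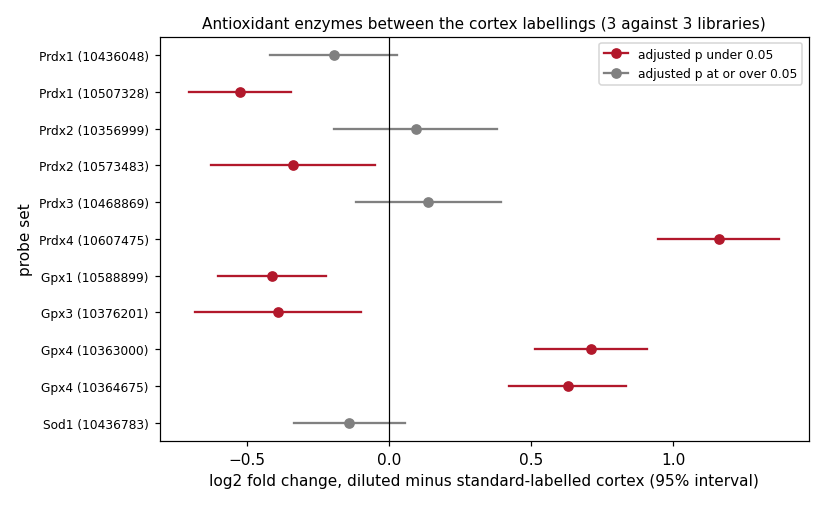
Log2 fold change between diluted and standard-labelled cortex (x axis, 3 libraries each, bars are 95% intervals from limma) for the 11 antioxidant enzyme probe sets (y axis). Prdx4 at 1.16 and Gpx4 at 0.71 and 0.63 lie to the right of 0, and the 4 lower probe sets reach down to -0.52.

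The partners that recharge the peroxiredoxins were read from a list of the thioredoxin system. Thioredoxin itself (Txn1) was above background in all 4 MM cells at 10.28 to 12.94 and in JG cells 4, 6 and 7 at 11.38, 8.07 and 13.13, while JG cells 5 and 8 held 7.25 and 6.68. The mitochondrial thioredoxin Txn2 was above background in all MM cells (10.90 to 12.52) and in JG cells 6, 7 and 8 (9.85, 12.07 and 8.46). JG cell 7, the JG cell with Prdx3 above background, had the highest Txn2 of its group. MM cell 15, the MM cell with Prdx3 above background, held 11.74. The highest Txn2 of the MM cells, 12.52, was in MM cell 16, where Prdx3 was below background. Txnrd1, the cytosolic thioredoxin reductase, was above background in MM cells 14 and 19 and in no other cell, with 9.79 in cell 19. Of the 10 genes, 8 had a mean that passed the filter on dim probe sets in MM against JG cells, and 3 were at least 1 log2 unit higher in MM cells (Txn1 by 2.79, Txn2 by 2.55 and Txnrd1 by 1.10) and 0 lower, where 15% of all probe sets were higher and 2.99% lower. Txnrd3, Srxn1, Sesn1 and Sesn3 were above background in every diluted library and in none of the 9 cells. Every cell lay below every diluted library for Txnrd3, Srxn1 and Sesn1, but not for Sesn3. The Sesn3 means differed from diluted cortex by -0.13 in JG and -0.38 in MM cells, so its contrast rests on the higher background level of the cell arrays. Over all named probe sets, 48.6% of values passed that level in diluted cortex, against 17.8% in MM and 10.6% in JG cells.

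Most glutathione genes were bright in cortex and dim in cells. The glutamate-cysteine ligase subunits Gclc and Gclm, which start glutathione synthesis, were at 5.05 to 6.24 and 6.37 to 6.84 in the 9 cells, all below background, against means of 11.04 and 11.79 in diluted cortex. That is at least 9.94-fold and 16.7-fold lower in JG cells, and at least 13.3-fold and 22.3-fold lower in MM cells. Glutathione synthetase (Gss) was above background in JG cell 5 alone, at 8.33. Glutathione reductase (Gsr) was above background in MM cell 19 alone, at 8.97. The glutaredoxins Glrx3 and Glrx5, which serve iron-sulfur cluster handling, were above background in all 4 MM cells and in 1 and 4 of the 5 JG cells. Their means differed from diluted cortex by 0.53 and -0.36 in MM cells and by -2.84 and -1.73 in JG cells, and Glrx3 was 3.38 and Glrx5 1.37 higher on average in MM than in JG cells. Against diluted cortex all 8 glutathione genes past the filter were at least 1 log2 unit lower in JG cells (33.8% of all probe sets), and 6 of 8 in MM cells (30.1%).

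Among the remaining peroxide and superoxide enzymes, Gpx8 went the other way. Gpx8, an endoplasmic reticulum peroxidase without selenium, measured 7.18, 6.58, 12.13, 12.67 and 11.38 in JG cells 4 to 8 and 8.71, 6.51, 7.32 and 6.13 in MM cells 14, 15, 16 and 19. JG cells 6, 7 and 8 lay above the cortex libraries (8.35 to 9.32), and JG cells 4 and 5 below background. Sod2, the mitochondrial superoxide dismutase, was above background in MM cells 14, 15 and 19 (10.64, 10.78 and 9.93) and in JG cell 8 alone (10.58). Catalase (Cat) was above background in MM cell 15 (11.64) and JG cell 5 (8.44). MM cell 15 also held Ccs, the copper chaperone that loads Sod1, at 10.80, while the other 8 cells were below background. Of 8 genes of this list past the filter, 1 was at least 1 log2 unit higher in MM than in JG cells (Sod2) and 1 lower (Gpx8, a difference of -2.82), where 15% of all probe sets were higher and 2.99% lower. Extracellular Sod3 and Gpx6 were above background in all diluted libraries and in no cell.

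In the NRF2 pathway, Nfe2l2 was below background in all 9 cells, at 4.71 to 5.51 in MM cells, and at 8.92 to 9.14 in diluted cortex. The partners of NRF2, the small MAF proteins Mafg and Mafk, were above background in 8 and 6 of the cells. The NRF2 target Nqo1 was also below background in all 9 cells, at 5.43 to 5.77, and lay at least 5.31-fold under diluted cortex in JG cells. Of 9 pathway genes past the filter, 1 was at least 1 log2 unit higher in MM than in JG cells and 1 lower, against the same 15% and 2.99%. The higher gene was Gsta4 (a difference of 1.12). The lower was Nfe2l2 (-1.22), a difference between values that were all below background. The glutathione transferase Gstp1 was bright in 6 of the 9 cells (12.74 to 13.30 in MM cells 14, 15 and 19 and JG cells 6, 7 and 8), 8.33 in JG cell 4 and below background in MM cell 16 and JG cell 5. Sephs2, which makes the selenium donor for selenoproteins, was above background in MM cells 14, 15 and 19 (9.81, 11.16 and 9.99) and in JG cell 5 (11.26). Those are the 4 cells in which Gpx3 was above background, in MM cell 14 by only 0.33 log2 units. The selenoprotein genes Gpx1 and Gpx4 were above background in all 9 cells. A link between Sephs2 and Gpx3 was not tested. Of 7 selenoprotein synthesis genes past the filter, 4 were at least 1 log2 unit higher in MM than in JG cells (Pstk by 1.78, Trnau1ap by 1.76, Sephs2 by 1.53 and Eefsec by 1.24) and 0 lower, where 15% of all probe sets were higher and 2.99% lower. Selenop, the plasma selenium carrier, was below background in all 9 cells and averaged 12.18 in diluted cortex.

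**Figure D4:**
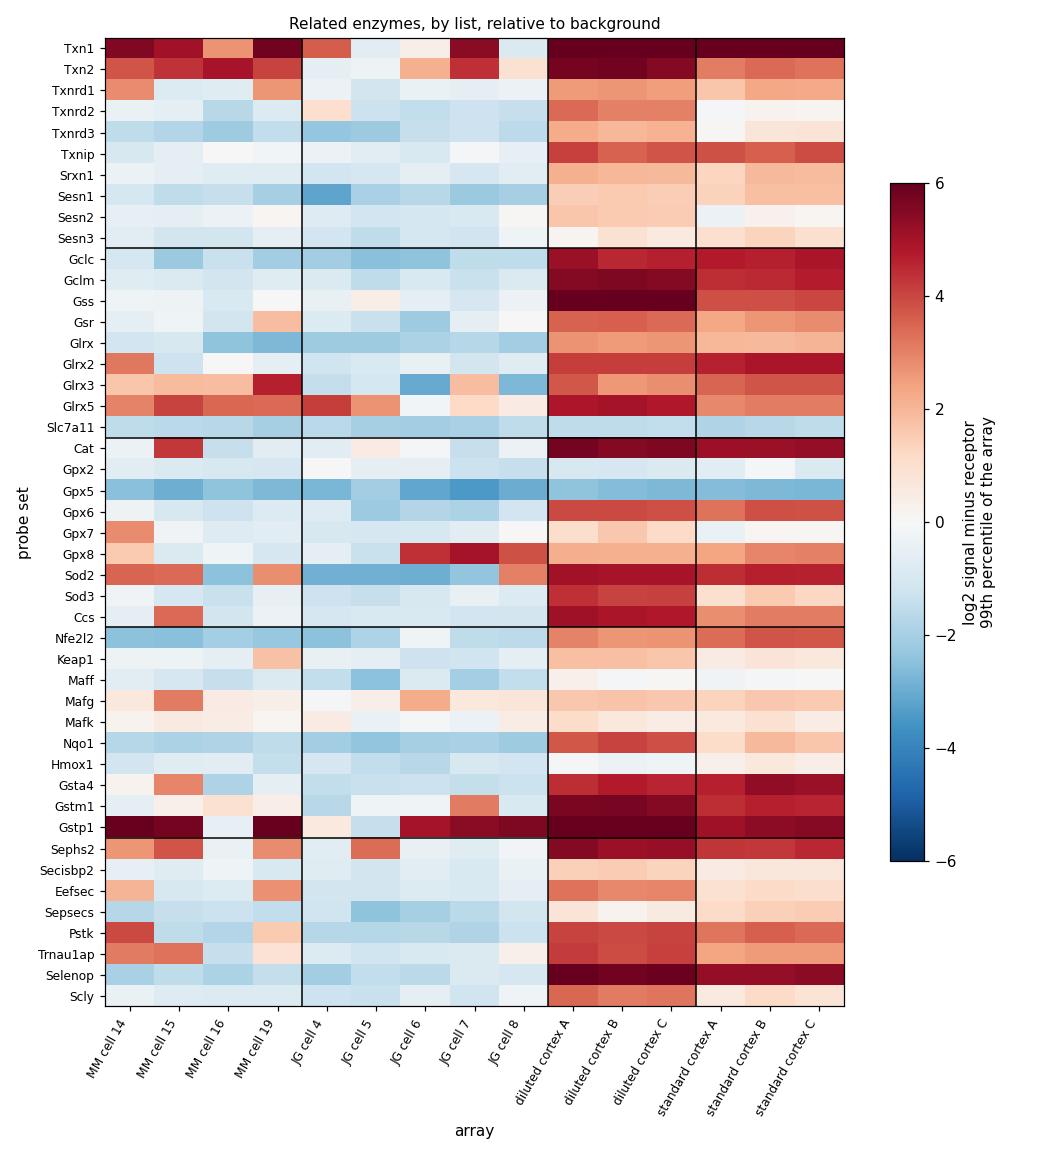
Log2 signal minus the receptor 99th percentile of the same array (colour, limited to 6 units each way) for the related genes (rows, horizontal lines between the 5 lists) on 15 arrays (columns). Gclc, Gclm and Selenop are above 0 on cortex arrays and below 0 in all cells, and Gpx8 is bright in JG cells 6, 7 and 8.

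Between the cortex preparations, most of these related genes passed the test, as did 77.9% of all probe sets. In limma, 5 of 10 thioredoxin genes rose in diluted cortex and 2 fell, 5 of 8 tested glutathione genes rose and 2 fell, and 5 of 7 other enzymes rose and 1 fell. Of 10 NRF2 pathway genes 4 rose and 3 fell, and of 8 selenoprotein synthesis genes 7 rose and 1 fell. Median log2 fold changes were 0.28, 0.66, 0.30, 0.06 and 0.77 in that order, against -0.14 for the 11 antioxidant enzyme probe sets and 0.04 over all tested. Txnrd2 rose by 2.91 ± 0.10 (SE, limma adjusted p = 1.2e-07) and Sod3 by 2.80 ± 0.13 (SE, limma adjusted p = 4.1e-07). Sepsecs, the enzyme that makes selenocysteine on its transfer RNA, fell by 0.98 (SE 0.13, limma adjusted p = 0.00017).

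Genes that most resembled each enzyme over the 9 cells were sought among 2542 to 2544 named probe sets that were above background in at least 2 cells and spanned at least 3 log2 units. Pearson correlations are given as descriptions. The cells fall into 2 groups and share the amplification and the background of their arrays. Prdx2 probe set 10356999 was followed by Fis1, of mitochondrial fission (r = 0.991, n = 9 cells), the splicing factor gene Sf3b5 (0.989) and fibrillarin, Fbl, of the nucleolus (0.980). All 3 were high in the 4 MM cells and JG cell 6, at 11.51 to 12.43 for Fis1, 10.80 to 11.87 for Sf3b5 and 11.40 to 11.99 for Fbl. Prdx4 was followed by Pdia6, an endoplasmic reticulum disulfide isomerase (0.980), the succinate dehydrogenase subunit Sdhb (0.951) and Smdt1, of the mitochondrial calcium uniporter (0.949). Prdx3 was followed by the mitochondrial protein gene Mrps36 (0.984), the annexin Anxa5 (0.966) and the inhibin subunit Inha (0.962). These correlations rest on MM cell 15 and JG cell 7, the cells with Prdx3 above background.

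Gpx3 was followed by Mpnd (0.973), the small GTPase gene Rab28 (0.866) and Brk1, of actin regulation (0.861). Sod1 was followed by the chaperonin subunit Cct4 (0.976), the kinase Bckdk (0.948) and the splicing factor Sfpq (0.941). Prdx1 was followed by the mitochondrial nucleotide carrier Slc25a4 (0.902), the helicase Ddx5 (0.843) and the selenoprotein gene Selenof (0.811). Gpx1 was followed by Rnf7 (0.832), Bex3 (0.826) and Rwdd1 (0.775), and Gpx4 by the mitochondrially encoded ND3 (0.773), a probe set annotated as Mir692-1 (0.748) and Hnrnpa2b1 (0.720). Among the 11 probe sets themselves the highest correlations over the 9 cells were within genes, at 0.885 for Prdx1, 0.877 for Prdx2 and 0.823 for Gpx4. Between genes they ranged from -0.597 (Prdx3 and Gpx1) to 0.689 (Prdx2 and Prdx4).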

How the data were processed

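The values are the deposited log2 probe set signals of 15 arrays, between 2.22 and 13.98, used as the authors left them. Affymetrix Expression Console made them, per the submitters' processing notes, and no source used here gives its version, summary algorithm or normalization. The log2 scale was read from the values. Precision is limited by how many arrays there are.

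The platform annotation named the probe sets: 21789 carry 1 gene symbol, 1621 several, and 12147 are unlisted. All 11 probe sets of the antioxidant enzymes matched RefSeq by gene ID. The genes and lists were chosen with earlier results of these data known. Each enzyme of the list could be named, with the 3 genes most like it and up to 4 genes of a related list. Gss, Gsr, Cat, Ccs, Mafg, Mafk and other related genes given per cell fell outside this rule and were picked with their values in view.

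Cortex preparations were compared with limma 3.58.1 in R 4.3.3, 3 against 3 libraries, at an adjusted p under 0.05, for probe sets whose mean in the higher group reached 6.08. This was tested on simulated data. Where a group was below background on all arrays, "at least" folds use each array's background level. Python 3.11.15 (numpy 2.4.6, pandas 2.3.3) gave the remaining values and matplotlib 3.10.9 the plots. Alternatives covered the filter, normalization, centring, block, background level, group medians, probe sets and left-out arrays.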

Additional observations from a re-analysis of the deposited data

Results flagged for a closer look

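Within the groups of 4 MM and 5 JG cells, 8 of the 22 sets of values had 1 cell far from the others by Dixon's criterion at the 95% level. Chance meets it in about 1 in 20 sets of independent normal values, and on these arrays 10.6% of all named probe sets past the filter met it (11.8% in MM and 9.49% in JG cells). Probe sets of one gene and values of one cell are not independent, and Gpx3 in JG cell 5 was among the values known when the enzymes were selected, so the count is a description. High cells were JG cell 6 for Prdx2 probe set 10356999 (11.17, next 5.13) and for Prdx4 (11.26, next 6.36), JG cell 7 (12.15, next 5.78) and MM cell 15 (9.64, next 5.38) for Prdx3, and JG cell 5 for Gpx3 (12.37, next 7.46). Low cells were MM cell 16 for Prdx1 probe set 10507328 (5.82, next 11.40) and for Gpx1 (10.60, next 12.14), and JG cell 4 for Gpx4 probe set 10363000 (9.72, next 11.85). MM cell 16 was still above background for Gpx1, and JG cell 4 for Gpx4. MM cell 16 and JG cell 4 have low shares of named probe sets above background (11.6% and 9.41%), and the part of this in their low values was not tested.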

How the results depend on the processing

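Of 121 values of single probe sets under 11 alternatives for the cortex comparison, 101 kept their direction and their side of the threshold. With all 15 arrays in the fit, 0 probe sets of these enzymes passed in either direction (limma, lowest adjusted p = 0.092, 1 higher and 0 lower at an unadjusted p under 0.05), and over all probe sets 3559 were higher and 3693 lower in place of 7302 and 6686. Without the filter, 35557 probe sets entered in place of 17954, and 10212 were lower. Leaving out 1 library gave 6759 to 7258 higher and 6246 to 6611 lower over all, and 3 higher and 2 to 3 lower among the enzymes. Prdx3 turned to -0.14 with quantile normalization, and Prdx2 probe set 10356999 spanned -0.014 to 0.18 with libraries left out. With the letters A, B and C as a replicate block, 3 enzyme probe sets were higher and 4 lower, and 7358 and 6710 overall. Same-lettered libraries correlated at 0.185, 0.193 and 0.044 in their deviations from the group means, and each correlated best with its own letter. Pairs of unlike letters lay between -0.211 and 0.043. No label says what the letters mark, so these values do not settle whether the libraries are paired.

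For MM minus JG by the brightest probe set, 4 genes were at least 1 log2 unit higher, 2 with quantile normalization and 3 to 5 with cells left out, and 0 lower, 1 with group medians and 0 to 1 with cells left out. Prdx1 became 0.090 centred on receptors and 0.97 without MM cell 16 and JG cells 4 and 5, and spanned -1.32 to 0.49 with cells left out. Gpx4 became 0.15 centred on receptors, 0.053 with group medians and 0.15 over its probe sets, and spanned -0.22 to 0.084. Prdx3 spanned -1.52 to 0.94 and Gpx3 -0.19 to 1.84. For JG minus diluted cortex, 1 gene was at least 1 log2 unit higher with group medians, Prdx1 at 1.04, and the median over genes was -3.66 centred on receptors. Prdx1 became 0.45 with quantile normalization and spanned -0.92 to 0.75. For MM minus diluted cortex, 7 genes in place of 3 were lower when centred on receptors, where Prdx2 became -0.24. Gpx1 became 0.017 with group medians. Without MM cell 16 and JG cells 4 and 5, Prdx1, Gpx1 and Sod1 became 0.047, 0.060 and 0.032, and they spanned -0.85 to 0.047, -0.50 to 0.060 and -0.62 to 0.032 with 1 array left out. The share of values above background kept within its spread over cells under all alternatives run. The causes were not tested.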
